A study of Homo sapiens with 8 samples.

Results

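The genes described here are 45 human genes of S phase and mitosis, taken by symbol from a list of proliferation genes that was drawn up with earlier results of these data known. A gene counted as measured when 2 or more of the 8 arrays gave a probe of that symbol a detection p-value (the chance of such a signal from a negative control probe) below 0.05, and 42 of the 45 passed, out of 11182 genes measured in all. Of the 16 genes of S phase and DNA replication 13 were measured, and of the 29 mitotic genes all 29. RNA came from SW1353 cells, an established human chondrosarcoma line used as a model of chondrocytes and grown in DMEM, profiled on Illumina whole-genome arrays in 4 groups of 2 arrays each. These were siHDAC6 + IL-1, siCon + IL-1, siHDAC6 and siCon. The siHDAC6 cells had received a QIAGEN siRNA against HDAC6, the cytoplasmic deacetylase of alpha-tubulin, and the siCon cells the AllStars siRNA, which has no target. In the + IL-1 groups interleukin-1alpha, an inflammatory cytokine, was added 24 h after the siRNA and left on for 6 h, by the sample labels, while the study's text also gives a longer exposure. The study's general transfection protocol has all cells kept without serum for a night between 24 h of transfection and the cytokine. By that protocol the interval from siRNA to cytokine would be longer than 24 h. All arrays come from a single cell line treated in duplicate, and no source used here says whether the duplicates were separate experiments, so the p-values measure the spread between these arrays, which may be technical.

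A dividing cell copies its genome in S phase and shares the copies out in mitosis, and the genes for each task are transcribed in turn. S phase genes, which encode the machinery that opens replication origins, unwinds DNA and supplies nucleotides, are known targets of the E2F transcription factors and peak around the start of replication. Mitotic genes, which encode the cyclin B kinase, the spindle, its motors and the checkpoint that holds chromosomes until they are attached, peak later and are known to carry a motif called CHR (cell cycle genes homology region) together with CCAAT boxes, bound by the MuvB complexes and by NF-Y. In bulk RNA the level of such an mRNA reflects how many cells are in that phase and how much each of them holds, and on these arrays the 2 cannot be told apart.

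The promoters of the genes that passed the test in any comparison below are where both motif classes can be read side by side, so 6 of them are shown, 4 from genes that were higher with siHDAC6 (KIF23, PRC1, KIF11 and TOP2A) and 2 from genes that were lower with IL-1 in siCon cells (MCM6 and RRM1). The 4 were picked because they carry CHR, and of the other called genes with a promoter in the table AURKB has a CCAAT box only and KIF2C has no match. Each line gives the 120 bases before the annotated transcription start, 5′ to 3′ on the strand of the gene, from RefSeq (GRCh38.p14), and capitals mark matches to CHR, the CCAAT box or E2F on either strand.
KIF23 (chr15:69414229-69414348, plus strand): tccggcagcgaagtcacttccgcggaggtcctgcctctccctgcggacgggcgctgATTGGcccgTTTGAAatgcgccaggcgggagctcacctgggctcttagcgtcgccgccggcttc
PRC1 (chr15:90994536-90994655, minus strand): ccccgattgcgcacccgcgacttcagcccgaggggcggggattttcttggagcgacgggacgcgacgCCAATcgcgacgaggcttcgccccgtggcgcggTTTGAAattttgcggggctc
KIF11 (chr10:92593010-92593129, plus strand): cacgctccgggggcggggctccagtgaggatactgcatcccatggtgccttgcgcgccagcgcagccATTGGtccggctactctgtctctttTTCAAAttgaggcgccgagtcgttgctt
TOP2A (chr17:40417897-40418016, minus strand): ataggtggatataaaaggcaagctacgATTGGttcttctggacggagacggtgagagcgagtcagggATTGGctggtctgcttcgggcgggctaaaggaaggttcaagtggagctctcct
MCM6 (chr2:135876444-135876563, minus strand): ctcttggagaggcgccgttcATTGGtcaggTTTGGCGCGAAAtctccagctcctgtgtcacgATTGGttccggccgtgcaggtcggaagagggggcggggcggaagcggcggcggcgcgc
RRM1 (chr11:4094565-4094684, plus strand): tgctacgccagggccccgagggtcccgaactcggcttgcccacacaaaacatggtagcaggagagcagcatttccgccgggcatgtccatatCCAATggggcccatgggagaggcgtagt
The searched letters were TTTGAA for CHR, TTCGAA for a CHR variant counted apart, and CCAAT for the CCAAT box. For E2F they were TTTGGCGC, TTTCCCGC or TTTCGCGC, and all were searched on both strands. In CDCA8 and MKI67 a CHR and a CCAAT box overlap, in MCM7 an E2F match and a CCAAT box, in MCM2 and MCM6 E2F matches on opposite strands, and in PTTG1 a pair of CCAAT boxes. Positions below are counted in bases from the start, with negative values before it. In KIF23, PRC1 and KIF11 a single CHR lies between the CCAAT box and the start, from positions -55 to -50, -20 to -15 and -28 to -23. TOP2A has a pair of CHR matches farther out, from -194 to -189 and from -151 to -146, outside the bases printed. In MCM6 the overlapping E2F matches of the printed stretch lie between CCAAT boxes, and a further overlapping pair lies farther out. RRM1 has a CCAAT box in the stretch shown and a CHR match at -199 to -194.

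Across the 36 genes of the 45 that had a promoter in the RefSeq table (250 bases before to 50 after the start, 300 in all), the motifs divided by phase. CHR was present in 14 of 23 mitotic promoters (60.9%) and in 1 of 13 S phase and replication promoters (7.69%), against 15.4% of all 27305 promoters. The CHR variant was present in 1 of 23 (4.35%, BUB1) and in 1 of 13 (7.69%, MCM6), against 1.45% of all. E2F letters were present in 3 of 23 mitotic promoters and in 10 of 13 S phase and replication promoters (76.9%), against 2.79% of all. The CCAAT box was common to both, in 19 of 23 (82.6%) and 9 of 13 (69.2%), against 35.7% of all. The 14 mitotic promoters with CHR were those of BUB1B, CCNB2, CDC20, CDCA8, CDK1, CENPA, CENPF, KIF11, KIF23, MKI67, NUSAP1, PLK1, PRC1 and TOP2A. The 10 S phase and replication promoters with E2F letters were those of CDC6, CDT1, E2F1, GINS2, MCM2, MCM3, MCM6, MCM7, PCNA and TYMS. These are matches of letters in a fixed window and no measure of binding.

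**Figure D1:**
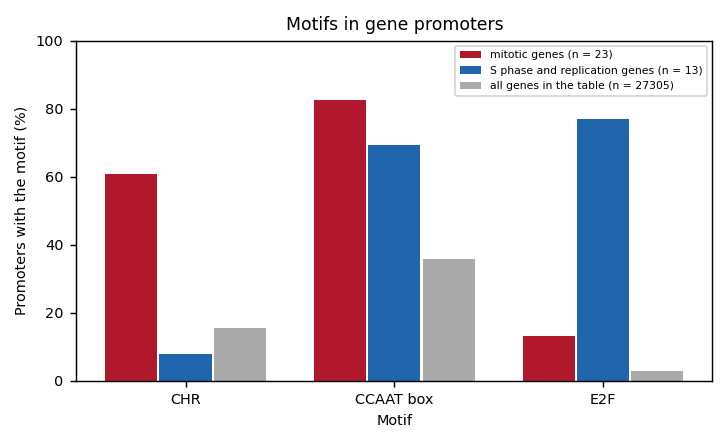
Share of promoters (%, vertical axis) with CHR, CCAAT box or E2F letters within 300 bases, for mitotic genes (23 promoters), S phase and replication genes (13) and all genes in the RefSeq table (27305). The CHR bar is tallest for mitotic genes (60.9%) and the E2F bar for S phase and replication genes (76.9%).

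The siRNA target itself, HDAC6 mRNA, was 4.84 and 4.87 (normalized log2 signal, as all levels below) on the siHDAC6 + IL-1 arrays, against 6.63 and 6.46 on the siCon + IL-1 arrays, and 5.14 and 4.87 on the siHDAC6 arrays, against 6.36 and 6.32 on the siCon arrays. It was above background on 1 siHDAC6 array and on neither siHDAC6 + IL-1 array, and in siHDAC6 + IL-1 cells it was at least 3-fold lower (adjusted p = 0.000624, limma), measured against the lowest signal of a detected probe on each array. Without IL-1 its log2 fold change came to -1.34, with a standard error of 0.124 (adjusted p = 0.00198). In the authors' own log2 values the differences were smaller, -0.53 with IL-1 and -0.41 without, and called as well. Median probe signals were 60.3 to 67.2 per array, 14315 to 16659 probes were detected, and replicates correlated at 0.988 to 0.992. Of 10 chondrocyte markers, SOX9, COL11A1 and HAPLN1 were detected on all 8 arrays, COL2A1, COL9A1 and COL11A2 on 4, 6 and 2 of them, and ACAN, COL9A2, MATN3 and COMP on none, so that the chondrocyte label rests on part of the programme. Among the leukocyte markers, PTPRC, CD3E, CD14 and ITGAM were detected on 0 arrays and LYZ was detected on 5, and among 6 epithelial markers KRT8 and KRT18 were detected on all 8 arrays EPCAM on 5 and CDH1, KRT19 and KRT5 on none. LYZ was not above background on either siHDAC6 + IL-1 array and was at least 1.71-fold lower there (adjusted p = 0.0197) and higher with IL-1 in siCon cells (0.63, adjusted p = 0.0347). SOX9 was lower with IL-1 in both siHDAC6 and siCon cells (-0.67 and -1.16), in siCon cells KRT18 was lower with IL-1 (-0.55), and HAPLN1 was higher after siHDAC6 when IL-1 was present (0.72), and the part of these markers in the results below was not tested.

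Of the 42 measured genes, 40 were detected on all 8 arrays. BUB1B, which encodes the spindle checkpoint protein BubR1, and MKI67, which encodes the proliferation antigen Ki-67, were each detected on 2 arrays, namely 1 siHDAC6 + IL-1 array and 1 siHDAC6 array, and on no siCon + IL-1 or siCon array. They thus passed the detection filter only on arrays of siHDAC6-treated cells. Both stay in the counts and medians of mitotic genes below, where they are no support for higher levels with siHDAC6. MKI67 lay at 4.81 and 5.44 in siHDAC6 + IL-1 cells, against 4.74 and 4.99 in siCon + IL-1 cells, and at 5.01 and 4.97 in siHDAC6 cells, against 4.79 and 4.85 in siCon cells. These levels are at the edge of detection in all 4 groups, so no fold is given (adjusted p = 0.477 with IL-1 and 0.709 without). BUB1B lay at 5.20 and 4.60 in siHDAC6 + IL-1 cells, against 4.50 and 4.76 in siCon + IL-1 cells, and at 4.90 and 5.41 in siHDAC6 cells, against 4.72 and 4.78 in siCon cells (adjusted p = 0.534 and 0.382), likewise at the edge of detection. E2F1 and CCNE2, regulators of entry into S phase, and CDC6, which loads the replicative helicase, were detected on no array. Their lowest detection p-values were 0.0791, 0.264 and 0.138, and they have no level here.

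The heat map of the 42 genes shows the layout of the data. Averaged over arrays each gene was set to 0, and the median deviation of the 29 mitotic genes was 0.08 and 0.14 on the siHDAC6 + IL-1 arrays, against -0.21 and -0.13 on the siCon + IL-1 arrays. It was 0.15 and 0.18 on the siHDAC6 arrays, against -0.14 and -0.10 on the siCon arrays. The 4 siHDAC6 arrays thus lay above the 4 siCon arrays, with or without IL-1. The 13 S phase and replication genes were arranged otherwise, at -0.06 and -0.07 on the siHDAC6 + IL-1 arrays and -0.12 and -0.16 on the siCon + IL-1 arrays, against 0.12 and 0.13 on the siHDAC6 arrays and 0.09 and 0.04 on the siCon arrays, so that the 4 IL-1 arrays lay below the 4 arrays without it. Most genes of the array also had a change below 0 with IL-1, 59.9% of all genes in siHDAC6 cells and 62.2% in siCon cells.

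**Figure D2:**
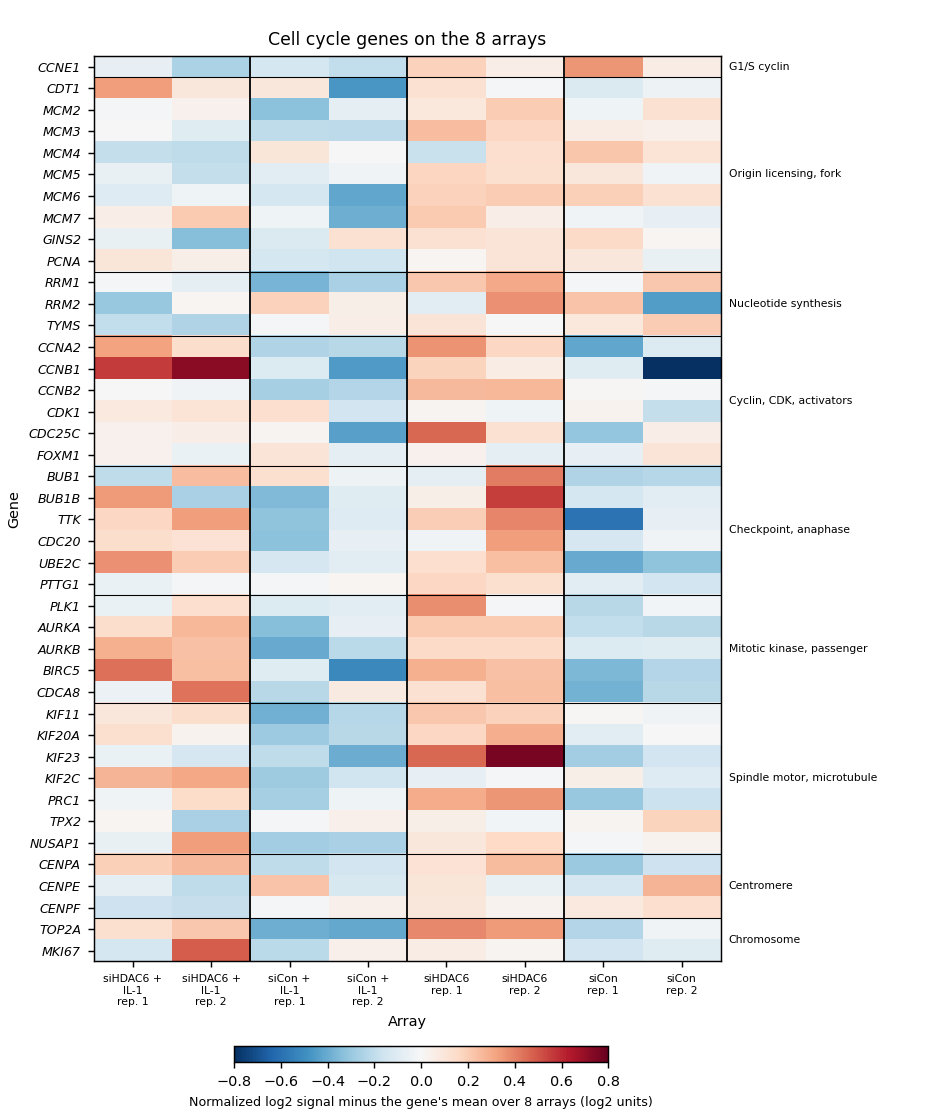
Each row is a gene, grouped by role, and each column an array. Colour gives the normalized log2 signal minus the mean of that gene over the 8 arrays (scale ends at -0.8 and 0.8). Rows of mitotic genes are mostly red on the arrays with siHDAC6. CCNB1 is strongest on those with IL-1, and KIF23, which lies below its mean there, on those without IL-1. Rows of replication genes are mostly blue on the + IL-1 arrays.

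The first comparison was of siHDAC6 with siCon cells in the presence of IL-1. Called genes were mitotic and higher with siHDAC6. Of the 42 genes, 5 (11.9%) passed an adjusted p of 0.05 (limma, adjusted over all 11182 genes) as higher and 0 as lower, against 3.65% of all genes called higher and 4.42% called lower. The 5 were AURKB, BIRC5, KIF11, KIF2C and TOP2A, all of them mitotic, so that 17.2% of the 29 mitotic genes and 0 of the 13 S phase and replication genes were called. At an unadjusted p under 0.05, 14 mitotic genes (48.3%) were higher and 0 lower, against 13.6% and 11.5% of all genes, and 2 S phase and replication genes (15.4%) were higher and 1 (7.69%) lower, near the share of all genes. Groups of 2 arrays often lie apart, as 28.9% of all genes did with both siHDAC6 + IL-1 arrays above both siCon + IL-1 arrays and 23.5% with both below. Of the 29 mitotic genes 19 (65.5%) lay above and 1 (3.45%) below, and of the 13 S phase and replication genes 7 (53.8%) lay above and 3 (23.1%) below. The median log2 fold change was 0.27 over mitotic genes (23 of 29 above 0, against 54.5% of all genes) and 0.16 over S phase and replication genes (8 of 13 above 0), beside 0.03 over all genes. The 23 include BUB1B and MKI67, which passed the detection filter only on arrays of siHDAC6-treated cells. By role the median was 0.40 over the 5 genes of mitotic kinases and the passenger complex, 0.33 over the 7 spindle genes, 0.30 over the 6 checkpoint and anaphase genes, 0.24 over the 6 genes of cyclins, CDK1 and their activators and -0.19 over the 3 centromere genes. Among replication genes it was 0.21 over the 9 of origins and forks and -0.24 over the 3 of nucleotide synthesis.

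AURKB and BIRC5 encode the kinase and survivin, which like the borealin encoded by CDCA8 are subunits of the passenger complex that corrects faulty attachments of chromosomes to the spindle. AURKB was 8.14 and 8.09 in siHDAC6 + IL-1 cells, against 7.45 and 7.64 in siCon + IL-1 cells (log2 fold change 0.57, standard error 0.105, adjusted p = 0.0196). BIRC5 was 6.76 and 6.55 in siHDAC6 + IL-1 cells, against 6.21 and 5.80 in siCon + IL-1 cells, a change of 0.65 (0.153, adjusted p = 0.042). The groups did not overlap for either gene, although the siCon + IL-1 replicates of BIRC5 lay apart. BIRC5 is the mean of a pair of probes, a bright one that changed by 0.80 (adjusted p = 0.047 when tested alone) and a dim one, detected on 4 arrays, with 0.50 (adjusted p = 0.13). CDCA8 was 7.01 and 7.50 in siHDAC6 + IL-1 cells, against 6.84 and 7.13 in siCon + IL-1 cells, and its groups overlapped (adjusted p = 0.392). AURKA, the centrosomal Aurora kinase, was 9.01 and 9.14, against 8.53 and 8.81, without overlap but short of the threshold (adjusted p = 0.0807). PLK1, the polo-like kinase of mitotic entry, was 6.15 and 6.35, against 6.10 and 6.12, a change of 0.14 whose 95% interval ran from -0.21 to 0.49.

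The spindle motors KIF11, which pushes the poles apart, and KIF2C, which shortens microtubules at kinetochores, were both called higher with IL-1 present. KIF11 was 7.27 and 7.32 in siHDAC6 + IL-1 cells, against 6.79 and 6.95 in siCon + IL-1 cells (log2 fold change 0.42, standard error 0.102, adjusted p = 0.0467). It is the mean of a pair of probes with 0.46 and 0.39, and neither was called when tested alone (adjusted p = 0.11 and 0.12, limma). KIF2C was 6.92 and 6.96 in siHDAC6 + IL-1 cells, against 6.37 and 6.50 in siCon + IL-1 cells (0.51, 0.106, adjusted p = 0.029). For both genes the gap between the groups was wider than the gap between replicates. Among the other genes of this class KIF20A, NUSAP1, KIF23 and PRC1 had changes of 0.33, 0.41, 0.21 and 0.21, without overlap between groups (adjusted p = 0.0948 to 0.395). TPX2, which activates AURKA on the spindle, had -0.13 with overlap, and none of the 5 was called. KIF20A is a motor and NUSAP1 a microtubule-binding protein of the late spindle.

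TOP2A, the topoisomerase that untangles sister chromatids, was 9.38 and 9.46 in siHDAC6 + IL-1 cells, against 8.86 and 8.84 in siCon + IL-1 cells (log2 fold change 0.57, standard error 0.108, adjusted p = 0.0212). Its replicates were close and the groups far apart. CCNB1, the cyclin that with CDK1 drives entry into mitosis, showed a wider difference at 7.18 and 7.35 in siHDAC6 + IL-1 cells, against 6.51 and 6.17 in siCon + IL-1 cells. Its change of 0.92 (standard error 0.236, 95% interval 0.38 to 1.47) did not pass the threshold (adjusted p = 0.0545). CDK1 itself was 7.04 and 7.07 in siHDAC6 + IL-1 cells, against 7.10 and 6.81 in siCon + IL-1 cells, with overlapping groups and a change of 0.10. FOXM1, a transcription factor of mitotic genes, was 6.68 and 6.60, against 6.75 and 6.57, also overlapping, with a change of -0.02. CCNA2 and CCNB2, further mitotic cyclins, and CDC25C, the phosphatase that activates CDK1, had changes of 0.46, 0.23 and 0.25, without overlap and without a call.

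Among the genes of the checkpoint and of anaphase, UBE2C, the ubiquitin-conjugating enzyme of the anaphase-promoting complex, and its activator CDC20 did not overlap between groups. UBE2C was 9.69 and 9.53 in siHDAC6 + IL-1 cells, against 9.19 and 9.24 in siCon + IL-1 cells (0.40, adjusted p = 0.0623). CDC20 was 9.40 and 9.38, against 8.94 and 9.20 (0.33, adjusted p = 0.224). The checkpoint kinase genes TTK and BUB1 had 0.46 and -0.02, and PTTG1, which encodes securin, had -0.03. Of the centromere genes CENPA, the centromeric histone H3, was 6.84 and 6.91, against 6.44 and 6.49 (0.41, adjusted p = 0.0568), while CENPE, a kinetochore motor, and CENPF, a kinetochore protein, each had -0.19, and for CENPF both siHDAC6 + IL-1 arrays lay below both siCon + IL-1 arrays.

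**Figure D3:**
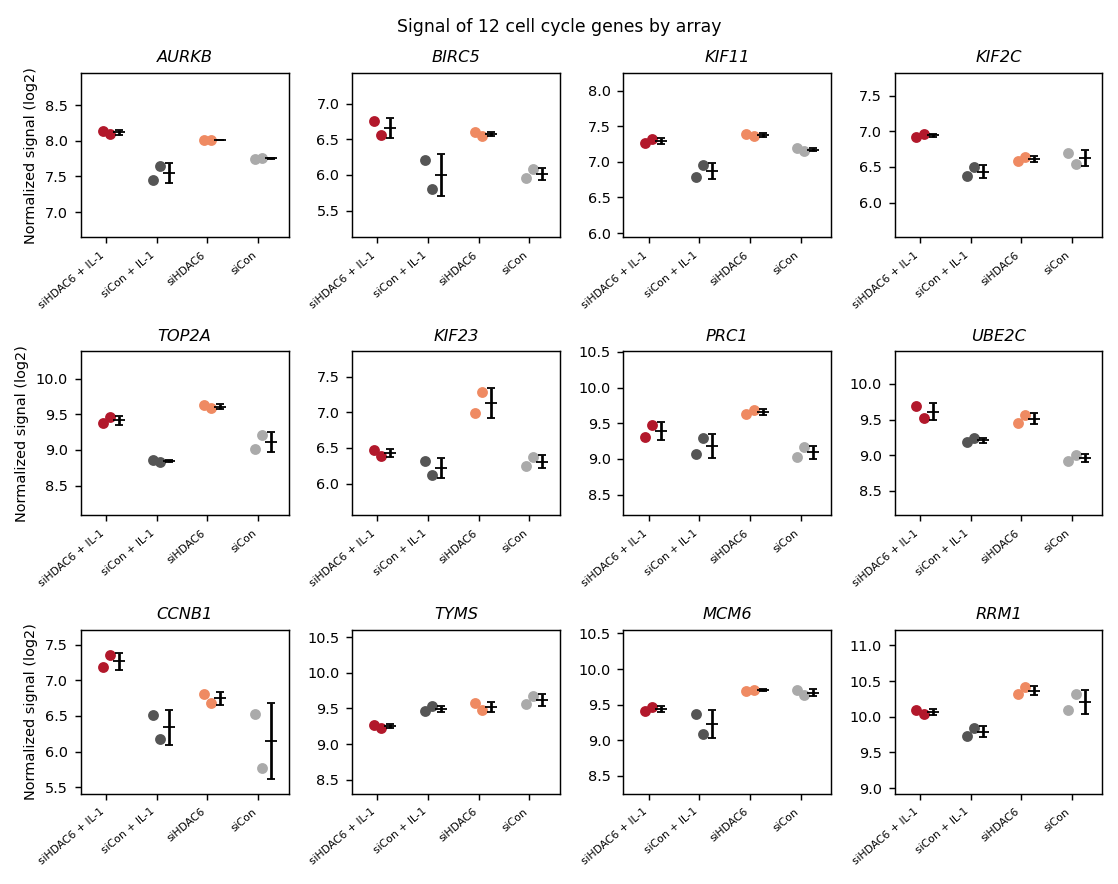
Normalized log2 signal (vertical axis, the same span of 2.3 log2 units in every panel) of 12 genes on each array, by group. Points are arrays and the bar beside them is the mean with the SD of 2 arrays. TOP2A is higher on each siHDAC6 array than on the siCon arrays of the same IL-1 condition, KIF23 is highest in siHDAC6 cells without IL-1 (6.99 and 7.28), and MCM6 and RRM1 are lower on the + IL-1 arrays than on the arrays of the same siRNA without IL-1.

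The S phase and replication genes had changes in both directions in siHDAC6 + IL-1 cells, and none was called. MCM2, a subunit of the replicative helicase, was 6.72 and 6.76 in siHDAC6 + IL-1 cells, against 6.40 and 6.65 in siCon + IL-1 cells (0.21, adjusted p = 0.33), and PCNA, the sliding clamp, was 6.48 and 6.43, against 6.24 and 6.22 (0.22, adjusted p = 0.235). PCNA is the mean of a bright probe, with 0.40 (adjusted p = 0.46 when tested alone, limma), and dim ones detected on 2 and 5 arrays, with 0.01 and 0.25. TYMS, thymidylate synthase, was 9.27 and 9.23, against 9.46 and 9.53 (-0.24, adjusted p = 0.189), and RRM2, the regulated subunit of ribonucleotide reductase, was 5.19 and 5.50, against 5.67 and 5.54 (-0.26, adjusted p = 0.567). CCNE1, the cyclin of entry into S phase, was 5.85 and 5.67, against 5.78 and 5.72, and overlapped. Without overlap, MCM2 and PCNA thus lay higher and TYMS and RRM2, like MCM4, lower in siHDAC6 + IL-1 cells, and none passed the test. CDT1, which loads the helicase, and MCM7 had the widest positive changes of the class, 0.40 and 0.34. MCM7 is the mean of a bright probe with 0.25 and a dim one, detected on 7 arrays, with 0.43. The remaining changes were 0.16 for MCM3, -0.25 for MCM4, -0.07 for MCM5, 0.21 for MCM6, -0.20 for GINS2 of the GINS complex and 0.28 for RRM1, the large subunit of ribonucleotide reductase.

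The count of calls depended on single arrays. Calls over all genes fell as well in each fit that left out an array, so the drop was not particular to these genes. Without siHDAC6 + IL-1 replicate 1 or replicate 2, 0 of the 42 genes were called, and without siCon + IL-1 replicate 2 AURKB alone was. Without siCon + IL-1 replicate 1 the called genes were BIRC5 and CDT1, and CDT1 is an S phase gene. Without either siHDAC6 array, which enter only through the shared spread, they were AURKB and TOP2A, and without either siCon array AURKB, KIF2C, TOP2A and CCNB1. The median over the 42 genes lay between 0.22 and 0.24 in all 8 of these fits, beside 0.24 with all arrays, and was 0.145 with the authors' own log2 values. Fitted with the 4 arrays of this comparison alone, 0 genes were called, and with median scaling in place of quantile normalization CCNB1 was and none of the 5. With the authors' values 13 were called higher, the 5 among them, and TYMS lower. The changes of BIRC5, KIF11 and KIF2C were smaller there, 0.34, 0.27 and 0.27.

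The second comparison was of siHDAC6 with siCon cells without IL-1. Again the called genes were mitotic and higher with siHDAC6. Of the 42 genes, 4 (9.52%) were called higher and 0 lower, against 1.64% of all genes called higher and 2.41% called lower. These were KIF23, PRC1, UBE2C and TOP2A, 13.8% of the 29 mitotic genes, and 0 of the 13 S phase and replication genes were called. At an unadjusted p under 0.05, 15 mitotic genes (51.7%) were higher and 0 lower, against 9.78% and 9.86% of all genes, and 0 S phase and replication genes were on either side. Both siHDAC6 arrays lay above both siCon arrays for 22 of the 29 mitotic genes (75.9%) and for 4 of the 13 S phase and replication genes (30.8%), against 26.5% of all genes, and below them for 0 of the 42, against 24.1%. The median log2 fold change was 0.30 over mitotic genes (24 of 29 above 0) and 0.10 over S phase and replication genes, beside 0.01 over all genes. The 22 and the 24 mitotic genes both include BUB1B and MKI67, which passed the detection filter only on arrays of siHDAC6-treated cells.

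KIF23 and PRC1 act together at the spindle midzone, KIF23 as a motor of the centralspindlin complex and PRC1 as the protein that bundles antiparallel microtubules before the cell divides. KIF23 was 6.99 and 7.28 in siHDAC6 cells, against 6.24 and 6.37 in siCon cells (log2 fold change 0.83, standard error 0.134, adjusted p = 0.0176). PRC1 was 9.63 and 9.68 in siHDAC6 cells, against 9.03 and 9.16 in siCon cells (0.56, 0.124, adjusted p = 0.0497). Neither pair of groups overlapped. UBE2C was 9.46 and 9.57 in siHDAC6 cells, against 8.92 and 9.01 in siCon cells (0.55, 0.108, adjusted p = 0.0343). TOP2A was 9.63 and 9.58, against 9.01 and 9.22 (0.49, 0.108, adjusted p = 0.0499), and was the single gene of the 42 called in both siRNA comparisons. PRC1 and TOP2A stood at the threshold, and this call of TOP2A was lost on leaving out any 1 of the 8 arrays.

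The genes called with IL-1 present had the following values without it. AURKB was 8.01 and 8.01 in siHDAC6 cells, against 7.75 and 7.76 in siCon cells (0.26, adjusted p = 0.231), BIRC5 was 6.60 and 6.55, against 5.96 and 6.08 (0.56, adjusted p = 0.0924), and KIF11 was 7.39 and 7.36, against 7.19 and 7.15 (0.21, adjusted p = 0.318). KIF2C was 6.58 and 6.64 in siHDAC6 cells, against 6.70 and 6.55 in siCon cells, with overlap and a change of -0.01. AURKB, BIRC5 and KIF11 had groups apart without IL-1 as well, and KIF2C did not.

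CCNB1 was 6.81 and 6.68 in siHDAC6 cells, against 6.53 and 5.77 in siCon cells, with a change of 0.59 (standard error 0.236, adjusted p = 0.217), and the SD of its siCon replicates, 0.536, was the largest of the 42 genes in any group. CDC20 was 9.23 and 9.60, against 9.13 and 9.23, CDK1 6.99 and 6.93, against 6.99 and 6.77, and FOXM1 6.68 and 6.57, against 6.58 and 6.75, all overlapping. PLK1 was 6.58 and 6.19, against 5.99 and 6.19, with a change of 0.30 (adjusted p = 0.337). Of the genes not given per array here, TTK, CCNA2, CDCA8, CDC25C, AURKA and CENPA had changes of 0.62, 0.53, 0.48, 0.42, 0.42 and 0.42. BUB1, PTTG1, KIF20A and CCNB2 had 0.40, 0.27, 0.27 and 0.26, and NUSAP1 had 0.12. For each of these genes the groups did not overlap, as 26.5% of all genes did not in this direction, and the adjusted p missed the threshold (0.0739 to 0.706). TPX2, CENPE and CENPF had -0.09, -0.05 and -0.05.

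Among the S phase and replication genes the changes ran from -0.19 for MCM4 to 0.25 for RRM2, with adjusted p from 0.432 to 0.934. MCM2 was 6.81 and 6.93 in siHDAC6 cells, against 6.69 and 6.85 in siCon cells, and PCNA was 6.39 and 6.48, against 6.47 and 6.32. TYMS was 9.57 and 9.47, against 9.56 and 9.68, RRM2 5.40 and 5.86, against 5.71 and 5.04, and CCNE1 6.10 and 5.97, against 6.27 and 5.98. The groups overlapped for all 5 of these genes.

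Here too the count moved with single arrays. Calls over all genes fell as well, except without a siCon + IL-1 array, where they changed little. Without siHDAC6 replicate 1 KIF23 alone was called, as it was without either siHDAC6 + IL-1 array, and without siHDAC6 replicate 2 or either siCon array 0 genes were. Without either siCon + IL-1 array KIF23, PRC1, UBE2C and BIRC5 were called. The median over the 42 genes lay between 0.19 and 0.22 in all 8 of these fits, and was 0.129 with the authors' log2 values and 0.148 with median scaling. Fitted with the 4 arrays of this comparison alone or with median scaling, 0 genes were called, and with the authors' log2 values 10 were called, the 4 among them, with a smaller change for KIF23 (0.45). Without a detection filter KIF23 changed by 0.42 and UBE2C, no longer called, by 0.36.

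Of the 8 genes called with siHDAC6 in either comparison, 6 had a promoter in the table, and 4 of these, the ones printed above, carried CHR (66.7%, beside 60.9% of all mitotic promoters). CCAAT was present in 5 of the 6 (83.3%, beside 82.6%) and E2F letters in 0.

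**Figure D4:**
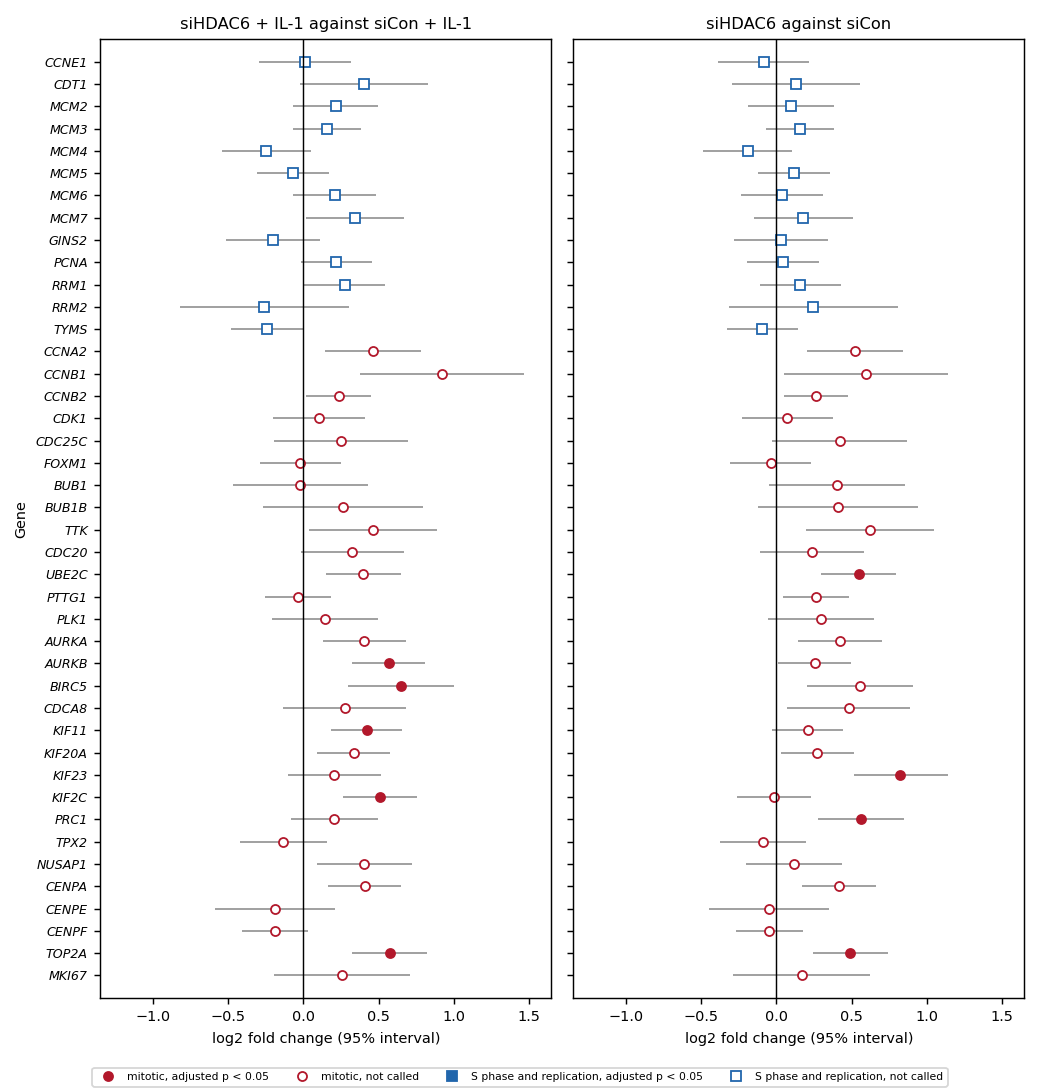
Log2 fold change (horizontal axis) of the 42 genes for siHDAC6 + IL-1 against siCon + IL-1 (left) and siHDAC6 against siCon (right), with 95% intervals from limma. Filled symbols passed an adjusted p of 0.05. Mitotic genes (circles) lie to the right of 0 in 23 and 24 of 29 cases, while S phase and replication genes (squares) gather nearer to 0. BUB1B and MKI67, detected only on arrays of siHDAC6-treated cells, are among these mitotic genes in both panels.

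Both siRNA comparisons were set beside the IL-1 response within each siRNA, with which they share arrays. In siHDAC6 cells, 1 of the 42 genes (2.38%) was called lower with IL-1 and 0 higher, against 4.27% of all genes called lower and 5.99% called higher. At an unadjusted p under 0.05, 7 (16.7%) were lower and 1 (2.38%) higher, against 14.3% and 10.6% of all genes, so that the share lower was near that of the array. The called gene was KIF23, at 6.47 and 6.39 in siHDAC6 + IL-1 cells, against 6.99 and 7.28 in siHDAC6 cells (log2 fold change -0.70, standard error 0.134, adjusted p = 0.0145). CCNB2 was 9.25 and 9.23 in siHDAC6 + IL-1 cells, against 9.51 and 9.52 in siHDAC6 cells (-0.28, adjusted p = 0.107). KIF2C was 6.92 and 6.96, against 6.58 and 6.64 (0.33, adjusted p = 0.0981). The median was -0.26 over S phase and replication genes (11 of 13 below 0, against 59.9% of all genes) and -0.05 over mitotic genes, beside -0.06 over all genes. Both siHDAC6 + IL-1 arrays lay below both siHDAC6 arrays for 9 of the 13 (69.2%) and for 10 of the 29 mitotic genes (34.5%), against 34.3% of all genes, and above them for 0 and 4, against 21.4%. Without siHDAC6 replicate 2, or without either siHDAC6 + IL-1 array, or with median scaling, the call of KIF23 was lost, and with the authors' log2 values 8 genes were called lower, KIF23 by -0.39.

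In siCon cells, 2 of the 42 genes (4.76%) were called lower with IL-1 and 0 higher, against 11.2% of all genes called lower and 9.37% called higher, so the share of these genes called was below that of the array as a whole. At an unadjusted p under 0.05, 7 (16.7%) were lower and 1 (2.38%) higher, also below the shares of all genes, 20.6% and 12.7%. Both called genes belong to S phase, 15.4% of the 13 measured there, against 11.2% of all genes called lower. At an unadjusted p under 0.05, 30.8% of the 13 were lower, against 20.6% of all genes. MCM6, another helicase subunit, was 9.37 and 9.09 in siCon + IL-1 cells, against 9.70 and 9.63 in siCon cells (-0.43, standard error 0.118, adjusted p = 0.0372). RRM1 was 9.73 and 9.85, against 10.09 and 10.32 (-0.42, 0.116, adjusted p = 0.0404). Neither overlapped. KIF11 was next, at 6.79 and 6.95 in siCon + IL-1 cells, against 7.19 and 7.15 in siCon cells (-0.30, adjusted p = 0.0798).

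In siCon cells 12 of the 13 S phase and replication genes had a change below 0, against 62.2% of all genes, with a median of -0.17, beside -0.09 over all genes and -0.01 over mitotic genes. Both siCon + IL-1 arrays lay below both siCon arrays for 9 of the 13 (69.2%) and for 8 of the 29 mitotic genes (27.6%), against 39.1% of all genes, and above them for 0 and 4, against 20.8%. CCNE1 was 5.78 and 5.72 in siCon + IL-1 cells, against 6.27 and 5.98 in siCon cells (-0.37, adjusted p = 0.0868). Its brighter probe had -0.62 (adjusted p = 0.017 when tested alone, limma) and its dimmer one -0.13 (adjusted p = 0.76). The gene was called lower when the brightest probe was used and under the stricter detection filter. MCM2, PCNA and TYMS had -0.25, -0.17 and -0.12, and RRM2, the exception, had 0.23. For PCNA the bright probe had -0.49 (adjusted p = 0.3 when tested alone, limma) and the dim ones -0.007 and -0.004. The corresponding changes in siHDAC6 cells were -0.28 for CCNE1, -0.13 for MCM2, 0.01 for PCNA, -0.27 for TYMS and -0.28 for RRM2. Of the mitotic genes named above, CCNB1, CDK1, PLK1, FOXM1, CDC20 and TOP2A had changes of 0.19, 0.07, 0.02, -0.01, -0.12 and -0.27 with IL-1 in siCon cells and of 0.52, 0.10, -0.14, 0.01, -0.02 and -0.19 in siHDAC6 cells, and MKI67, near background, was not called in either (adjusted p = 0.912 and 0.738). Leaving out siCon + IL-1 replicate 1 or siCon replicate 1 left 1 of the 2 calls (MCM6 and RRM1 in turn) in siCon cells, and leaving out any of the other 6 arrays left 0, as did median scaling and a fit of the 4 arrays compared, while the authors' log2 values gave 8 lower and 1 higher.

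**Figure D5:**
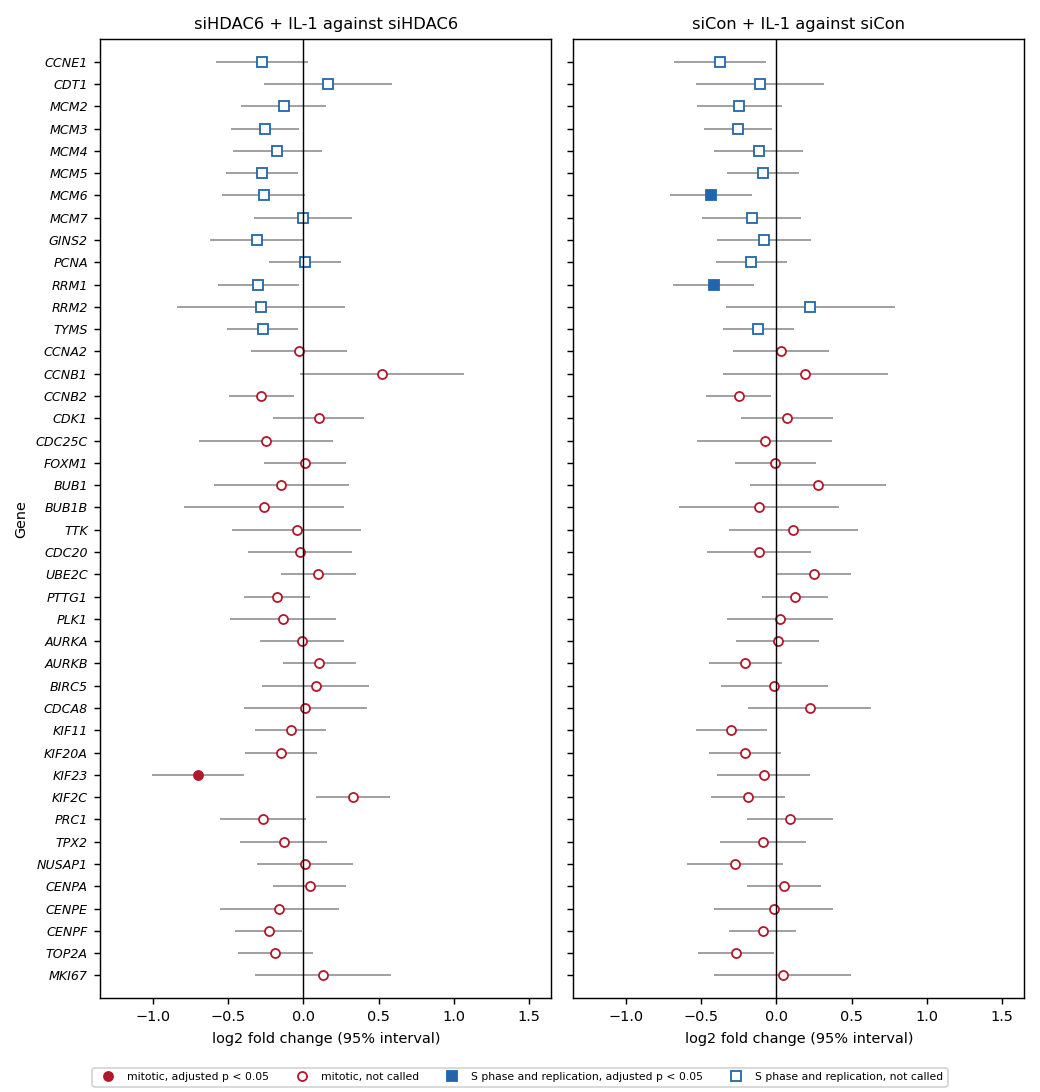
Log2 fold change (horizontal axis) of the 42 genes with IL-1, in siHDAC6 cells (left) and in siCon cells (right), with 95% intervals from limma. Filled symbols passed an adjusted p of 0.05, namely KIF23 on the left and MCM6 and RRM1 on the right. Most S phase and replication genes (squares) lie left of 0 in both panels.

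Whether the response to IL-1 differed between siHDAC6 and siCon cells was tested as an interaction. No difference was called for the 42 genes (0 by limma), against 0.00894% of all genes called higher and 0.107% called lower, and at an unadjusted p under 0.05 1 was higher and 1 lower (2.38% each, against 4.89% and 5.09% of all genes). KIF2C had the difference with the smallest p, 0.52 (95% interval 0.17 to 0.87, adjusted p = 0.335), with its 2 IL-1 arrays above those without IL-1 in siHDAC6 cells and below them in siCon cells. KIF23 had -0.62 (-1.06 to -0.18, adjusted p = 0.36) and PTTG1 -0.30 (-0.61 to 0.01, adjusted p = 0.515). The intervals for KIF2C and KIF23 excluded 0 before adjustment, and the other genes had differences from -0.51 for RRM2 to 0.33 for CCNB1. That a gene was called with siHDAC6 in the presence of IL-1 and not in its absence, or the reverse, is therefore not a tested difference between the conditions.

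The neighbouring genes of the cell cycle were taken from lists of 50 other mitotic genes, 40 other replication genes and 25 G1 cyclins, CDKs and their inhibitors. For all of these the alternatives were chosen after seeing the data. Of the 48 other mitotic genes measured, 6 were called higher and 1 lower in siHDAC6 + IL-1 against siCon + IL-1 cells (12.5% and 2.08%), against 3.65% and 4.42% of all genes, with a median of 0.31 and 40 above 0 (83.3%, against 54.5% of all genes). NEK2, a centrosomal kinase, was 7.31 and 7.25 in siHDAC6 + IL-1 cells, against 6.61 and 6.20 in siCon + IL-1 cells (0.87, adjusted p = 0.043). ASPM, a spindle pole protein, was 8.34 and 8.42, against 7.80 and 7.81 (0.57, adjusted p = 0.0146). NCAPD2, a condensin subunit, and DLGAP5, a spindle protein, each rose by 0.58 (adjusted p = 0.0213 and 0.0478). CDC25B, a phosphatase that activates CDKs, fell, at 10.47 and 10.39 in siHDAC6 + IL-1 cells, against 11.11 and 11.43 in siCon + IL-1 cells (-0.84, adjusted p = 0.00974), opposite to the other called genes of its list. The 6 calls fell to 0 without either siHDAC6 + IL-1 array or without siCon + IL-1 replicate 2, to 3 without siCon + IL-1 replicate 1 and to 2 without either siHDAC6 array, and that of CDC25B was lost without either siHDAC6 + IL-1 array. Without IL-1, 1 of the 48 (2.08%) was called higher, near the 1.64% of all genes, and 0 lower. At an unadjusted p under 0.05, 22 of the 48 were higher and 1 lower, against 9.78% and 9.86% of all genes. The median was 0.28. The called gene was CKS2, a subunit of CDK complexes, at 10.97 and 10.91 in siHDAC6 cells, against 10.26 and 10.47 in siCon cells (0.57, adjusted p = 0.035). The count was 0 on leaving out any 1 of the siHDAC6 + IL-1, siHDAC6 or siCon arrays and 2 without either siCon + IL-1 array.

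With IL-1 present, 5 of the 33 other replication genes measured were higher with siHDAC6 and 2 lower at an unadjusted p under 0.05. Of all genes 13.6% were higher and 11.5% lower at that threshold. After adjustment 0 of the 33 were called higher and 1 (3.03%) lower, against 3.65% and 4.42% of all genes. The gene was GINS1, of the GINS complex, which was above background on neither siHDAC6 + IL-1 array and on 1 of the 2 siCon + IL-1 arrays, and lay at 4.56 and 4.41 in siHDAC6 + IL-1 cells, against 5.37 and 5.11 in siCon + IL-1 cells (adjusted p = 0.0264), a call lost on leaving out any 1 of the 4 arrays compared. Without IL-1, 0 were called, with 6 higher and 2 lower at an unadjusted p under 0.05, against 9.78% and 9.86% of all genes. Of the 22 G1 genes measured, 0 were called higher and 2 (9.09%), both CDK inhibitors, lower with siHDAC6 in the presence of IL-1. Of all genes 3.65% were called higher and 4.42% lower. CDKN2D was 6.71 and 6.44 in siHDAC6 + IL-1 cells, against 7.28 and 7.38 in siCon + IL-1 cells (-0.76, adjusted p = 0.0114), and CDKN1B averaged 7.06 ± 0.08, against 7.51 ± 0.06 (SD, n = 2; -0.45, adjusted p = 0.0407). Leaving out any single array left 0 or 1 of the 2 calls, 0 without siHDAC6 + IL-1 replicate 2 or siCon + IL-1 replicate 2. Without IL-1, 0 of the 22 were called, with 4 higher and 2 lower at an unadjusted p under 0.05, again against 9.78% and 9.86% of all genes.

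With IL-1 in siCon cells 8 of the 22 G1 genes were called, 3 higher (13.6%, against 9.37% of all genes) and 5 lower (22.7%, against 11.2%). CCND3, a D-type cyclin, was 10.74 and 10.72 in siCon + IL-1 cells, against 9.15 and 9.10 in siCon cells (1.61, adjusted p = 2.89e-05). BTG1, an antiproliferative factor, and CDKN2D rose by 1.25 and 0.93, and these were the 3 of 22 called higher. The 5 called lower were CDK4, RBL2, CCND2 and CDKN2B, which fell by 0.47, 0.47, 0.40 and 0.34, and CDKN1C, above background on neither siCon + IL-1 array and at least 1.14-fold lower. The 3 higher calls stood on leaving out any array, and of the 5 lower ones 0 stood without either siCon array, 1 and 2 without siCon + IL-1 replicates 2 and 1, and 3 without either siHDAC6 array. CDK4 is a G1 kinase, RBL2 a retinoblastoma family repressor and CDKN2B and CDKN1C are CDK inhibitors. Of the 48 other mitotic genes, 2 were called higher and 2 lower (4.17% each), below the 9.37% and 11.2% of all genes. CDC25B and CKAP2L rose by 0.59 and 0.42 and NCAPD2 and CKAP2 fell by 0.45 and 0.36. Each of these calls was lost on leaving out at least some single arrays. Of the 33 other replication genes, 1 was called higher and 1 lower (3.03% each), also below the shares of all genes. POLA2, a subunit of DNA polymerase alpha, rose by 0.88. TIPIN, of the fork protection complex, detected on 1 of the 2 siCon + IL-1 arrays, fell by 0.64 (adjusted p = 0.048). No gene of the list was called lower without either siHDAC6 + IL-1 array, siCon + IL-1 replicate 2 or either siCon array, and 2 were without siCon + IL-1 replicate 1. In siHDAC6 cells IL-1 raised CCND3 and BTG1 by 1.11 and 0.82 and lowered CCND2 (-0.48), CKAP2 (-0.42), UNG (-0.43) and GINS1, which was at least 1.11-fold lower. Of the G1 genes 9.09% were thus called higher and 4.55% lower, against 5.99% and 4.27% of all genes. Lower calls took in 2.08% of the other mitotic and 6.06% of the other replication genes. The 2 rises stood on leaving out any array, the calls of CKAP2 and UNG were lost with each array left out, and those of CCND2 and GINS1 were lost on leaving out any 1 of the 4 arrays compared.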

How the data were processed

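The authors deposited, for each of 48803 probes on 8 arrays, the signal intensity before background subtraction or normalization and its detection p-value, and a table of log2 values from lumi (version not given in the sources used here), transformed to stabilise the variance and normalized by robust splines. Both hold the same arrays, and on each array the deposited log2 values rank the probes as the intensities do (lowest rank correlation 1).

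The intensities were background-corrected, quantile-normalized and put on a log2 scale with neqc of limma 3.58.1 in R 4.3.3 (offset 16). Probes with a detection p under 0.05 on at least 2 arrays and 1 gene symbol in the platform annotation (27578 of 48803 probes had 1, 13 several, 21212 none listed) were averaged per gene, giving 11182 genes. A mean per group was fitted with lmFit to all 8 arrays with eBayes moderation (residual degrees of freedom 4, prior 3.79), and p-values were adjusted over all genes by Benjamini-Hochberg. An adjusted p under 0.05 made a call. Signals of different probes were not set against each other. The workflow was tested on simulated data. The number of arrays, 2 per group, limits the precision.

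The genes and lists were chosen with earlier results of these data known. Array values are given for 12 set genes and for up to 6 called genes of largest change per contrast (the 3 with the smallest p where fewer than 3 were called), with other genes added by role after their values were seen. From each neighbouring list up to 4 called genes per direction are named, with further called genes named after their values were seen. Promoter sequences came from RefSeq. Slide and scan were not given in the sources used here, so no batch was fitted. Alternatives are given at the end, and those for HDAC6 and the neighbouring lists were added after seeing the data.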

Additional observations from a re-analysis of the deposited data

How the results depend on the processing

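The counts of called genes among the 42 depended on the settings, and no call changed sign in any of them. For siHDAC6 + IL-1 against siCon + IL-1, where 5 were called higher, the count was 13 with the authors' log2 values (and 1 lower), 12 with quantile normalization without background correction, 11 with an offset of 50, 10 when both arrays of some group had to reach a detection p of 0.01, 11 with trend and robust moderation, 1 with median scaling and 0 with the 4 arrays alone, and it was 0 to 4 on leaving out 1 array. For siHDAC6 against siCon, where 4 were called higher, it was 10, 8, 8, 7, 8, 0 and 0 under the same settings in the same order, and 0 to 4 on leaving out 1 array. For IL-1 in siCon cells, where 2 were called lower, it was 8 with the authors' values (and 1 higher), 5 with trend and robust moderation, 4 with the brightest probe of each gene, 0 with median scaling and 0 with the 4 arrays alone, and 0 to 1 on leaving out 1 array. For IL-1 in siHDAC6 cells, where 1 was called lower, it was 8 with the authors' values, 3 without background correction, 4 with trend and robust moderation and 0 with median scaling, and 0 to 1 on leaving out 1 array. No interaction was called under any setting. The cause of these shifts was not tested, except that the fits on fewer arrays had fewer samples. With most arrays left out the calls over all genes were fewer as well. The median over the 42 genes stayed above 0 in both siRNA comparisons under every alternative. Without a detection filter, with the brightest probe or with each probe on its own the counts for the siRNA comparisons were 3 to 5.

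Median scaling moved the median of all genes to 0.152, -0.052, -0.25, -0.0294 and 0.224 in siHDAC6 + IL-1 against siCon + IL-1, siHDAC6 against siCon, IL-1 in siCon cells, IL-1 in siHDAC6 cells and the interaction, and the median of the 42 genes to 0.369, 0.148, -0.253, -0.0976 and 0.231. All-gene calls (higher and lower) were 141 and 95, 31 and 149, 552 and 904, and 432 and 97 in the first 4 of these, beside 408 and 494, 183 and 270, 1048 and 1252, and 670 and 478 in the main setting. They were 872 and 820, 529 and 595, 1174 and 1917, and 837 and 1071 with the authors' values, 756 and 766, 451 and 510, 1163 and 1628, and 814 and 830 without background correction, 701 and 685, and 372 and 417 in the siRNA comparisons at a detection p of 0.01, 706 and 731, 421 and 470, 1147 and 1597, and 767 and 748 with an offset of 50, 800 and 733, 461 and 517, 1167 and 1643, and 807 and 838 with trend and robust moderation, and 83 and 193, 52 and 126, 864 and 712, and 605 and 358 with the 4 arrays alone. Interactions, 1 and 12 in all genes, ranged up to 45 and 119 with the authors' values.

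No source used here says whether same-numbered arrays of different groups were handled as pairs. After normalization their deviations from their group means correlated at -0.0431 to 0.0471, which cannot show how the arrays were run. With the replicate number as a block, 2 of the 42 genes were called higher in siHDAC6 + IL-1 against siCon + IL-1, 2 in siHDAC6 against siCon, 1 lower with IL-1 in siCon cells and 1 lower with IL-1 in siHDAC6 cells. All-gene calls (higher and lower), in the same order, were 288 and 387 (2.58% and 3.46%), 118 and 200 (1.06% and 1.79%), 975 and 1091 (8.72% and 9.76%), and 615 and 349 (5.5% and 3.12%).

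In alternatives chosen after seeing the data, other mitotic genes called higher with siHDAC6 ranged from 0 to 13 with IL-1 and from 0 to 10 without. In the main setting 48 genes of this list were measured. Under the same alternatives the share of all genes called higher ranged from 0.742% to 7.8% with IL-1 and from 0.277% to 4.73% without.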
